A study of Homo sapiens with 17 samples.

Results

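Of 41690 genomic regions bound by ARID1A in Nthy-ORI cells given T3, 12124 (29.1%, 95% interval 28.6 to 29.5%) shared no base with any region bound by BRG1, with or without the hormone. These BRG1-free ARID1A regions were selected from the ARID1A T3 list on chromosomes 1 to 22 and X by the absence of a 1 bp overlap with the BRG1 T3 list (55931 regions) and the BRG1 vehicle list (64289 regions). The other 29566 regions of the ARID1A T3 list are called the remaining regions. Membership was thus fixed by peak calls, and the width, signal value and distance to BRG1 given for the members are descriptions.

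ARID1A is a DNA-binding subunit that defines the BAF form of the SWI/SNF chromatin remodeller. The complex moves nucleosomes with 1 ATPase at a time, either BRG1 (gene SMARCA4) or BRM (gene SMARCA2), so a site of ARID1A is usually taken as a site of the whole complex. PBRM1 belongs to PBAF, a related form that lacks ARID1A and uses BRG1. TRβ (gene THRB) is a nuclear receptor of thyroid hormone that binds DNA with or without its ligand T3.

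CUT&RUN had been done against BRG1, ARID1A, PBRM1 and TRβ on nuclei of 500000 cells per reaction. Nthy-ORI is an established line of normal human thyroid epithelium. The cells were starved of hormone for 24 hours in stripped serum and then given 10 nM T3 or the NaOH vehicle; the time label reads 6 hours, while the protocol text also names 24 hours. The 17 libraries comprised 2 for each antibody under T3, 2 for each antibody under vehicle, and 1 with IgG that was not analysed here. No expression was measured in these lists, so the identity of the cells could not be checked against thyroid markers. Each pair of libraries had been joined by the authors into 1 list of reproducible peaks. The lists used here held 41690 regions for ARID1A with T3 and 48976 with vehicle, 38132 for PBRM1 with T3 and 9115 with vehicle, and 7186 for TRβ with T3 and 1405 with vehicle. Read depth is unknown, and a longer list has more chance of overlapping any region, so overlaps are tested here only between classes of ARID1A regions; where values of whole lists are set side by side, they are descriptions with no test.

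A handful of promoters that lay wholly inside a BRG1-free region show what such sequence looks like at genes. They were chosen after their values were seen: KRTAP10-6, a hair keratin-associated protein gene, for the highest signal value; SLC5A5, the iodide transporter gene, for its place in the thyroid; RET, a receptor tyrosine kinase gene, for its dense GC boxes; ADAMTS10, a secreted metalloprotease gene, because TRβ was called there with and without T3; and GOLGA3, a Golgi structural protein gene, because TRβ was called there with T3 and the nearest BRG1 region was 58.2 kb away. Each run is the RefSeq promoter window of GRCh38.p14, 250 bases before to 50 after the start site, written 5′ to 3′ on the strand of the gene. Capitals mark GGGCGG (GC box), AGGTCA (nuclear receptor half-site) or TGANTCA (AP-1), searched on both strands, so CCGCCC is the GC box read from the other strand. The windows are chr21:44592456-44592755 on the minus strand for KRTAP10-6, chr19:17871695-17871994 on the plus strand for SLC5A5, chr10:43076819-43077118 on the plus strand for RET, chr19:8592167-8592466 on the minus strand for ADAMTS10 and chr12:132829032-132829331 on the minus strand for GOLGA3.
KRTAP10-6: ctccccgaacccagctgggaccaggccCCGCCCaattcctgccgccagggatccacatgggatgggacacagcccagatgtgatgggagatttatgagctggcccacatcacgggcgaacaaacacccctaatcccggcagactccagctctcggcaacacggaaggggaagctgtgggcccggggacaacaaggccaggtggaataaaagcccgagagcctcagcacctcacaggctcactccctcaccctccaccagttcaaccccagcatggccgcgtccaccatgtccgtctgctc
SLC5A5: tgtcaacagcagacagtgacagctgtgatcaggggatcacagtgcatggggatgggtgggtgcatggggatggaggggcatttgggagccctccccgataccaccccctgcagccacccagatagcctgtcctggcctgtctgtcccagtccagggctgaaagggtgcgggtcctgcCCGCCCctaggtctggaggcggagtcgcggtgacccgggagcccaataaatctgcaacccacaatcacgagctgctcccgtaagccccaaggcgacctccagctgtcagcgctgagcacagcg
RET: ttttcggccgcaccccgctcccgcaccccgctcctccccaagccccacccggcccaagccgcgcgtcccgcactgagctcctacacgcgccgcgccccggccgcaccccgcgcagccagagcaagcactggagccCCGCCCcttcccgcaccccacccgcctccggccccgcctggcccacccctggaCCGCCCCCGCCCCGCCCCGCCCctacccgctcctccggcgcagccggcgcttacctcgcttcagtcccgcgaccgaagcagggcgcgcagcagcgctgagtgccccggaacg
ADAMTS10: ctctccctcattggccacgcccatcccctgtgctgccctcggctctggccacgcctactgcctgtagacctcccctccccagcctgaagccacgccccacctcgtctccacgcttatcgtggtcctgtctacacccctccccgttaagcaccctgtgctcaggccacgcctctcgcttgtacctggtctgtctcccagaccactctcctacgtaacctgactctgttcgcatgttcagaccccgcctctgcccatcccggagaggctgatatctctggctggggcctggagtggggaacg
GOLGA3: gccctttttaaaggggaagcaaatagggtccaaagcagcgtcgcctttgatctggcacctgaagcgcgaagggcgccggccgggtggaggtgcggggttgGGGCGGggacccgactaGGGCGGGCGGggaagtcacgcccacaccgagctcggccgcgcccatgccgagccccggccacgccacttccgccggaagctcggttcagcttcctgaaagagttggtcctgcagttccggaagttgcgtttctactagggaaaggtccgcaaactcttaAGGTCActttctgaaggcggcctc
The RET window held 5 GC boxes and the KRTAP10-6 and SLC5A5 windows 1 each. The GOLGA3 window held 3 GC boxes, which partly overlap, and 1 nuclear receptor half-site. The ADAMTS10 window had no match to any of the 3 motifs, although TRβ was called over it.

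The BRG1-free regions were narrower and weaker than the remaining ARID1A regions, as a description of the list that chose them. Their median width was 651 bp (quartiles 486 and 862 bp, range 80 to 3870 bp), against 837 bp in the remaining regions (quartiles 583 and 1203 bp, range 87 to 13378 bp). The signal value, which the authors formed as the sum of 2 library values, had a median of 9.93 in BRG1-free regions (highest 39.8) and 12.3 in remaining regions (highest 105.1). Both classes began at the same lowest value of 7.81, and they overlapped over the whole range of the members. An irreproducible discovery rate (IDR) of 0.01 or less, the mark of a peak ranked alike in both libraries, was reached by 37.0% of BRG1-free and 68.8% of remaining regions. The share of BRG1-free regions dropped with every step in signal value: it was 49.7%, 40.4%, 31.3%, 18.5% and 5.54% over the quintiles of all ARID1A T3 regions from weakest to strongest.

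The values of the 2 ARID1A T3 libraries were lower in BRG1-free regions in both. The first library columns had a median value of 5.45 in BRG1-free and 6.44 in remaining regions, and the second 4.35 in BRG1-free and 5.77 in remaining regions. Across regions, Spearman's rho between the library values was -0.21 in the BRG1-free and 0.28 in the remaining class, as a description with regions of the same pair of libraries as points. The class is bounded below in the sum of these same values and spans a narrow range of it (5th to 95th percentile 8.35 to 15.2 in BRG1-free and 8.59 to 25.2 in remaining regions), so rho is no measure of how well the libraries agree. The values differed by at least 2 times in 13.6% of BRG1-free and 14.8% of remaining regions.

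**Figure D1:**
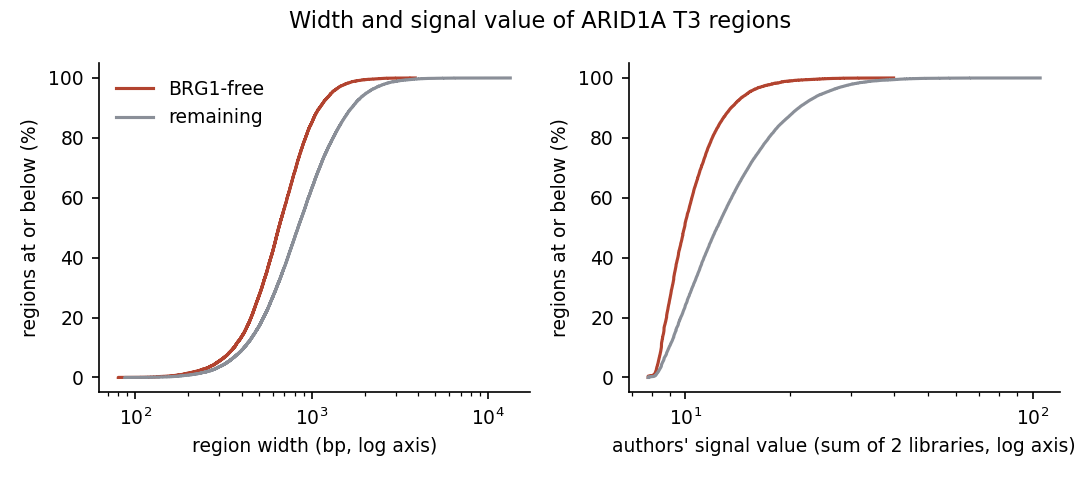
Cumulative share of regions (%, y axis) by width in bp (left, log axis) and by the authors' signal value (right, log axis), for 12124 BRG1-free and 29566 remaining ARID1A T3 regions. The BRG1-free curve lies to the left in both panels, with medians of 651 against 837 bp and 9.93 against 12.3.

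Most of the 10 strongest BRG1-free regions lay in bodies of genes near the ends of chromosomes 10, 20 and 21. The highest signal value, 39.8, belonged to a 2957 bp region inside STK32C, a serine/threonine kinase gene (chr10:132235610-132238566), with library values of 25.04 and 14.7. PDXK, the vitamin B6 kinase gene, held a region with library values of 18.5 and 15.2 (chr21:43752840-43755137). LAMA5, which encodes a laminin chain of basement membranes, held a pair of the 10 strongest (chr20:62310757-62313538 and chr20:62332435-62335638), with 17.8 and 14.4 in the library values of one and 19.3 and 12.1 in those of the other. In all 4 of these regions both libraries gave values well above the medians of their class. SLCO4A1, an organic anion transporter gene that can carry thyroid hormone, held a region with library values of 13.5 and 18.2 (chr20:62655394-62657627). CFAP46, a gene of the ciliary axoneme, held one with 13.9 and 17.6 (chr10:132823210-132825393), 48.0 kb from the nearest BRG1 region. An uncharacterised gene on chromosome 2, LOC107985915, held one with 19.1 and 12.5, at 94.2 Mb from the outermost annotated gene. Also away from chromosome ends, 2 of the 10 lay on chromosome 19 near the zinc finger gene ZFP14, at distances of 33.9 and 27.4 kb from it. One of them had unequal library values of 5.74 and 25.7, and the other had 14.5 and 14.3. PLEC, the gene of the cytoskeletal linker plectin, held the last, with 21.4 and 7.28.

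Among the 10 strongest regions, 9 overlapped the PBRM1 T3 list and 9 the ARID1A vehicle list. The STK32C region was the one without PBRM1, and the CFAP46 region the one absent from ARID1A vehicle. The first LAMA5 region and the PLEC region were also in the TRβ T3 list, and the PLEC region and both regions near ZFP14 in the TRβ vehicle list. These proportions belong to the top of the signal range and not to the whole class, as the shares below show.

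**Figure D2:**
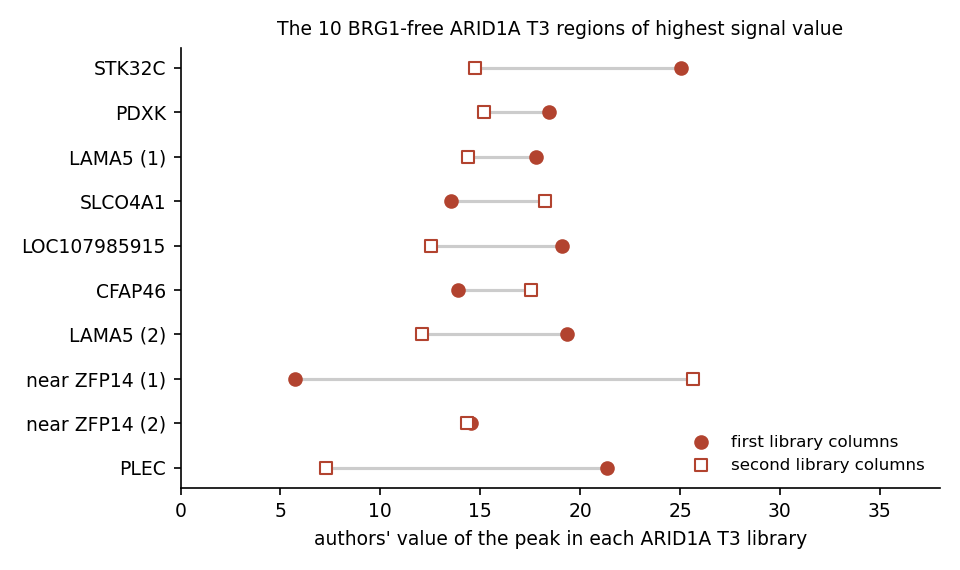
The authors' value of the peak in each of the 2 ARID1A T3 libraries (x axis, unstated scale; filled circles, first library columns; open squares, second) for the 10 BRG1-free regions of highest summed signal, named by the gene they lie in or near. The upper ZFP14 region and the PLEC region show the widest gaps between libraries, 5.74 against 25.7 and 21.4 against 7.28.

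BRG1-free ARID1A regions were in the other lists less often than the remaining ARID1A regions. In the ARID1A vehicle list, 2342 of 12124 BRG1-free regions (19.3%, 18.6 to 20.03%) had an overlap, against 19949 of 29566 remaining regions (67.5%, 66.9 to 68.0%); over all ARID1A T3 regions the share was 53.5%. The log2 odds ratio was -3.11 (SE 0.038, two-sided Fisher's exact test, Benjamini-Hochberg adjusted p = 1.2e-300). Unadjusted p-values were written no smaller than 1e-300, so an adjusted value of 1.2e-300, here and below, is an upper bound. The other 9782 BRG1-free regions were called with T3 and had no counterpart in the vehicle list, which says nothing of the signal below its threshold. Neighbouring regions share libraries and chromatin domains and are not independent replicates, so this p and those that follow describe these lists and not repeated experiments.

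PBRM1, the PBAF subunit, overlapped 2428 BRG1-free regions with T3 (20.03%), against 60.6% of remaining and 48.8% of all ARID1A T3 regions (log2 odds ratio -2.62, SE 0.037, Fisher's exact test, adjusted p = 1.2e-300). With vehicle, 313 BRG1-free regions (2.58%) lay in the PBRM1 list, against 21.7% of remaining and 16.1% of all regions (log2 odds ratio -3.39, SE 0.085, Fisher's exact test, adjusted p = 1.2e-300). Of the BRG1-free regions, 835 were in both PBRM1 T3 and ARID1A vehicle, which is 34.4% of those in PBRM1 T3, beside 19.3% of all members in ARID1A vehicle, and 35.7% of those in ARID1A vehicle, beside 20.03% of all members in PBRM1 T3. Among remaining regions, 13918 were in both, or 77.7% of those in PBRM1 T3 and 69.8% of those in ARID1A vehicle.

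TRβ, the hormone receptor, overlapped 234 BRG1-free regions with T3 (1.93%), against 15.3% of remaining and 11.4% of all ARID1A T3 regions (log2 odds ratio -3.20, SE 0.098, Fisher's exact test, adjusted p = 1.2e-300). With vehicle it overlapped 153 BRG1-free regions (1.26%), against 2.64% of remaining and 2.24% of all regions (log2 odds ratio -1.08, SE 0.13, Fisher's exact test, adjusted p = 8.55e-20). Of these 153 members, 16 (10.5%) were also in the TRβ T3 list, against 458 of 782 (58.6%) among remaining regions. The same 16 are 6.84% of the members in TRβ T3. Over all members the shares were 1.93% in TRβ T3 and 1.26% in TRβ vehicle.

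Width and signal value bear on the chance of any overlap, so the shares were also compared within strata of both. For ARID1A vehicle, 19.3% of BRG1-free regions stood against 54.6% of remaining regions weighted to the same width and signal strata (Mantel-Haenszel log2 odds ratio -2.51). For PBRM1 T3 it was 20.03% of BRG1-free against a weighted 50.5% of remaining regions (-2.16), and for PBRM1 vehicle 2.58% of BRG1-free against 17.1% of remaining (-2.97). For TRβ T3 it was 1.93% of BRG1-free against 8.55% of remaining regions (-2.34), so the 4 shares were lower for BRG1-free regions within strata as well. For TRβ vehicle the difference was no longer past the threshold: the share was 1.26% of BRG1-free regions against a weighted 1.39% of remaining regions, and the stratified log2 odds ratio was -0.15 (SE 0.14, Cochran-Mantel-Haenszel chi-square test over regions, adjusted p = 0.281). Before weighting, every share was lower for BRG1-free than for remaining regions on 23 of 23 chromosomes, except TRβ vehicle, which was lower on 22.

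**Figure D3:**
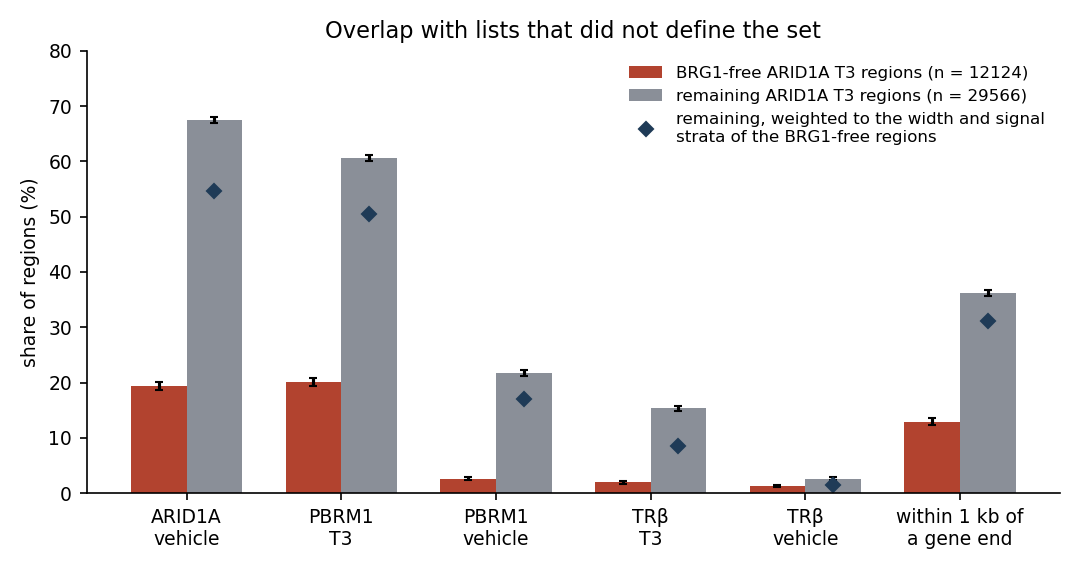
Share of regions (%) overlapping each list, or lying within 1 kb of a gene end, for BRG1-free (red) and remaining (grey) ARID1A T3 regions, with exact 95% intervals of counting error. Diamonds give the remaining regions weighted to the width and signal strata of the BRG1-free ones; they stay well above the red bars except for TRβ vehicle, where 1.26% of BRG1-free regions stands against a weighted 1.39% of remaining ones.

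Within the BRG1-free class, membership in other lists grew with the ARID1A signal. The share in ARID1A vehicle was 14.1% in the weakest and 43.1% in the strongest quintile, and the share in PBRM1 T3 14.5% in the weakest and 48.3% in the strongest. Remaining regions were at 44.2% and 91.4% for ARID1A vehicle in the same quintiles, so the strongest BRG1-free regions were found with vehicle about as often as the weakest remaining ones. Altogether 7932 BRG1-free regions (65.4%) were in none of the 5 other lists, against 5201 remaining regions (17.6%) and 31.5% of all ARID1A T3 regions. Setting PBRM1 vehicle and TRβ vehicle aside, 1552 BRG1-free regions were in PBRM1 T3 alone, 1469 in ARID1A vehicle alone, 782 in both of these and 53 in ARID1A vehicle, PBRM1 T3 and TRβ T3 together.

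Named regions of these classes were mostly in gene bodies. Shared with ARID1A vehicle but free of PBRM1 and TRβ were, after STK32C, regions beside KIF26A, a kinesin-family gene, with a signal value of 25.8, and inside MUC6, a gel-forming gastric mucin gene, also with 25.8. CHRNA4, a nicotinic acetylcholine receptor subunit gene (25.1), and RIN1, a Ras effector gene (24.9), followed; the RIN1 region lay only 0.15 kb from BRG1. In no other list were regions beside NTSR1, the neurotensin receptor gene (27.8, library values 16.1 and 11.7), and another one in LAMA5 (25.6, library values 8.47 and 17.2). A region 34.9 kb from FCGR2A, an Fc receptor gene (25.2), one in SNED1, a matrix protein gene (24.9), and one in SLC22A12, the renal urate transporter gene (24.2), completed that class. Strong ARID1A signal was thus also present where none of the other 5 lists and neither BRG1 list had a call. Among members with TRβ T3, PLXNA1, a semaphorin receptor gene, held a region of signal value 28.1 with unequal library values of 22.1 and 5.98. The widest member, 3870 bp on chromosome 21 (chr21:8387751-8391620), was covered by ARID1A vehicle over 3870 bp, by PBRM1 T3 over 3864 bp and by TRβ T3 over 3845 bp, with library values of 6.93 and 21.6; no protein-coding gene lay within 100 kb of it.

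At the membership threshold, 3 members touched a BRG1 region without sharing a base. They lay near PPCDC, a coenzyme A synthesis gene (signal value 10.9), in DOCK6, a guanine nucleotide exchange factor gene (10.1), and near ITGB2, a leukocyte integrin gene (8.71). Just outside it, regions near ACTL8 (9.76), in PI16 (10.1) and in FUT3, a fucosyltransferase gene (10.1), each shared 1 base with BRG1 and so count as remaining.

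Most BRG1-free regions were not next to a BRG1 region. The gap to the nearest one had a median of 6616.5 bp. It was at most 500 bp for 1105 members (9.11%), at most 5 kb for 43.1%, at most 10 kb for 61.2% and over 50 kb for 976 members. Members nearer to a BRG1 region were more often also in the PBRM1 T3 and ARID1A vehicle lists. The share in PBRM1 T3 was 35.3%, 26.0%, 18.2%, 16.1% and 13.9% over gaps of up to 0.5, 0.5 to 2, 2 to 10, 10 to 50 and over 50 kb, and that in ARID1A vehicle 27.5%, 21.7%, 18.5%, 17.7% and 15.5%. The share in TRβ T3 was 3.08% in the nearest and 1.33% in the farthest class, with 1.63% and 1.69% at 2 to 10 and 10 to 50 kb, and that in TRβ vehicle stayed between 1.18% and 1.41%. The median signal value stayed between 9.83 and 10.1 over these 5 classes. Even within 0.5 kb of BRG1 the members' share in PBRM1 T3 was below the 60.6% of remaining regions.

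**Figure D4:**
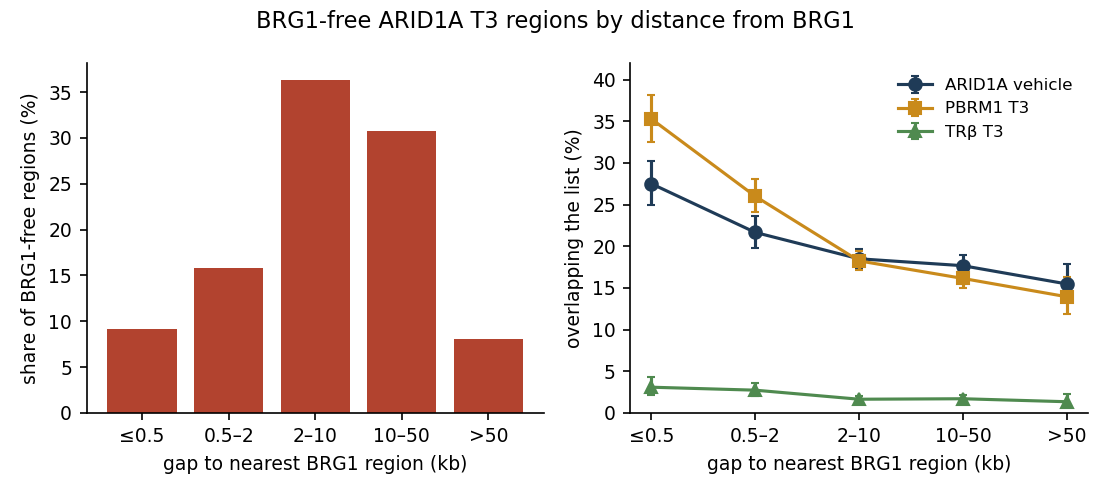
BRG1-free ARID1A T3 regions by the gap to the nearest BRG1 region in kb (x axis): share of members in each class (left, %) and share overlapping ARID1A vehicle, PBRM1 T3 and TRβ T3 (right, %, exact 95% intervals of counting error). Overlap with PBRM1 T3 is 35.3% in the nearest and 13.9% in the farthest class.

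Over 100 kb from any BRG1 region, a class added after its values were seen, the strongest members had signal values of up to 18.7. The first lay 63.6 kb from LOC100996701 on chromosome 12 (18.7), and the next beside ACSM2A, a medium-chain acyl-CoA synthetase gene (17.7, gap 247.8 kb), and inside CFAP61, a cilia gene (17.4, gap 276.6 kb). One lay 643.8 kb from CDH9, a cadherin gene, with BRG1 657.2 kb away (16.8, library values 11.8 and 4.92). These values were above the 95th percentile of the class, 15.2, and below its 10 strongest regions.

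With vehicle the same rule gave a larger class. BRG1-free regions made up 29.1% of the ARID1A T3 list and 39.0% of the ARID1A vehicle list (19093 of 48976). Their median width was 651 bp with T3 and 592 bp with vehicle. The share within 1 kb of a gene end was 12.9% with T3 and 11.2% with vehicle. ARID1A regions called under only one treatment were often BRG1-free: 50.4% of those called with T3 only (9782 of 19399), 65.8% of those called with vehicle only (16627 of 25284) and 10.5% of the T3 regions shared by both. Of the 2342 BRG1-free T3 regions with a vehicle counterpart, 2214 (94.5%) had one that was BRG1-free as well. The same BRG1 lists served for both treatments, and each counterpart overlaps an interval already without BRG1. A high share thus follows largely from the rule and does not measure agreement between treatments. Since 1 list stands for each treatment, the difference between treatments was not tested.

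BRG1-free regions lay farther from the ends of genes. The median distance from the middle of a region to the nearest end of an annotated gene (protein-coding or lncRNA) was 6830 bp for BRG1-free and 3265.5 bp for remaining regions. Within 1 kb of an end were 1565 BRG1-free regions (12.9%), against 36.2% of remaining and 29.4% of all ARID1A T3 regions (log2 odds ratio -1.94, SE 0.043, Fisher's exact test, adjusted p = 1.2e-300). The weighted share of remaining regions was 31.1% (Mantel-Haenszel log2 odds ratio -1.69). Start sites showed the larger gap: 6.64% of BRG1-free and 31.8% of remaining regions were within 1 kb of a start, with chromosome 8 left out because the promoter table used does not hold it. Of the members near a gene end, 42.7% were also near a start, against 76.7% of such remaining regions. The share inside a protein-coding gene was alike, at 63.1% and 61.5%, and a member far from genes was uncommon, since 2.12% of BRG1-free and 1.57% of remaining regions had no gene end within 100 kb.

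Promoters inside BRG1-free regions were few, and their CpG content lay between that of promoters in remaining regions and that of promoters without ARID1A. Of 22131 protein-coding promoter windows, 309 (1.40%, 282 genes) had their start site in a BRG1-free region and 9409 (42.5%, 7512 genes) in a remaining one. The median ratio of observed to expected CpG was 0.63 in the BRG1-free and 0.857 in the remaining class, with 0.46 in the 12413 windows whose start was in no ARID1A T3 region and 0.738 over all windows. A ratio of 0.6 or more, the usual mark of a CpG island, was found in 54.0% of BRG1-free, 90.2% of remaining, 41.2% of ARID1A-free and 62.2% of all windows. The RET window printed above, at 1.03, is on the island side of this limit and the SLC5A5 window, at 0.395, on the other. GC boxes were in 61.2% of BRG1-free, 78.5% of remaining, 39.3% of ARID1A-free and 56.3% of all windows. The half-site AGGTCA was in 16.8% of BRG1-free, 8.75% of remaining, 14.1% of ARID1A-free and 11.9% of all windows. The AP-1 motif TGANTCA was in 5.83% of BRG1-free, 4.30% of remaining, 7.56% of ARID1A-free and 6.15% of all windows. These motif shares were not tested, and a match is only a match of letters.

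The strongest members at protein-coding gene ends lay at both kinds of ends. MTG1, a gene of mitochondrial ribosome assembly, had a signal value of 27.9 with library values of 19.99 and 7.89, and KRTAP10-6, the first sequence above, had 26.4 with 14.8 and 11.7. EEF1A2, the elongation factor gene of neurons and muscle (24.4), NKAIN4 (23.1) and PTGDS, a prostaglandin D synthase gene (22.8), followed. All 5 overlapped the PBRM1 T3 list, and the PTGDS region also both TRβ lists. Of the 165 promoter windows that lay whole inside a member, 89 had the member in PBRM1 T3, 54 in ARID1A vehicle and 12 in TRβ T3. Over all members these shares were 20.03%, 19.3% and 1.93%, and some windows, such as a pair at GOLGA3, share a region, so the counts were not tested. The ADAMTS10 region (chr19:8591948-8592799, 852 bp, library values 9.90 and 9.14) was covered by TRβ over 780 bp with T3 and 852 bp with vehicle. The GOLGA3 region (chr12:132828522-132829431, library values 8.71 and 4.89) was covered by TRβ T3 over 352 bp and by PBRM1 T3 over 744 bp of its 910 bp.

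BRG1-free regions were concentrated in the outer stretches of chromosomes. Within 1 Mb of the outermost annotated gene of a chromosome, 55.7% of ARID1A T3 regions were BRG1-free. The share was 55.0% at 1 to 2 Mb, 44.6% at 2 to 5 Mb, 30.4% at 5 to 10 Mb and 23.5% at 10 to 20 Mb, and at 50 Mb or more it was 21.1%. Within 5 Mb of these outermost genes lay 4407 of the BRG1-free regions (36.3%) and 14.7% of the remaining ones. The BRG1-free share was higher inside this distance than beyond it on 22 of 23 chromosomes, the exception being chromosome 19, with 26.0% inside and 28.7% beyond. Without chromosomes 10, 20 and 21 the shares within 5 Mb were 34.2% of BRG1-free and 13.9% of remaining regions. This pattern was noticed in the data and is given with no test.

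The lists differed in how much of them lay in these outer stretches. Within 5 Mb of the outermost genes were 21.02% of ARID1A T3, 19.6% of PBRM1 T3 and 31.1% of TRβ vehicle regions, against 11.1% of BRG1 T3 regions. ARID1A vehicle regions were BRG1-free in 52.5% of cases within 5 Mb and 35.9% beyond, and PBRM1 T3 regions in 44.7% within and 26.1% beyond. For TRβ T3 regions the shares were 29.6% within and 27.2% beyond. How far GC content, mappability or copy number of these stretches moves with the calls was not tested.

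**Figure D5:**
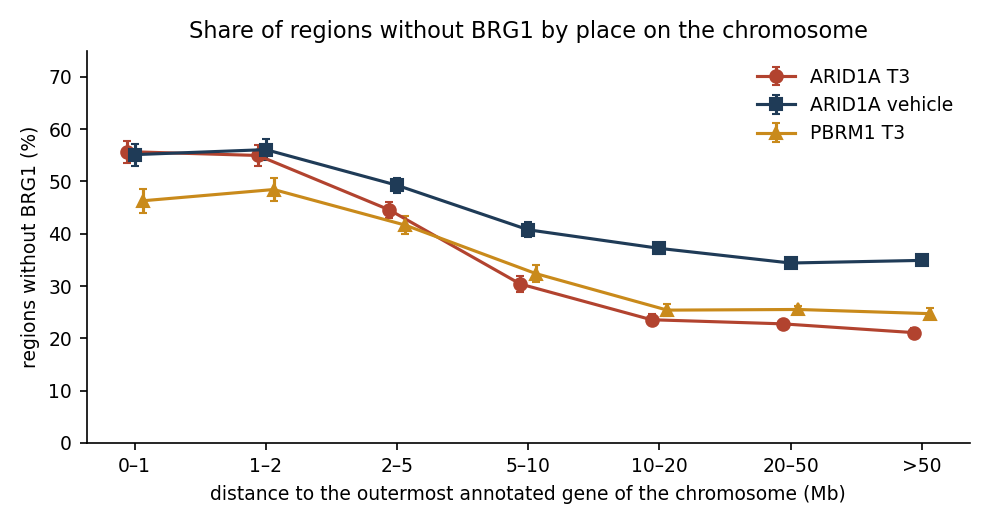
Share of regions without BRG1 (%, y axis, exact 95% intervals of counting error) by distance in Mb to the outermost annotated gene of the chromosome (x axis), for the ARID1A T3, ARID1A vehicle and PBRM1 T3 lists. For ARID1A T3 the share is 55.7% within 1 Mb and 21.1% beyond 50 Mb.

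By chromosome, the BRG1-free share ran from 16.3% on chromosome 3 to 45.9% on chromosome 20, with a median of 28.0%. Chromosome 21 followed at 43.7% and chromosome 22 at 37.2%. Members also crowded together: 51.7% of them had another member within 10 kb, and 6892 lay in the 356 bins of 500 kb that held at least 10. Crowding was not particular to the members. When regions within 10 kb were merged, the 12124 members formed 7867 clusters and the 29566 remaining regions formed 17031. The densest bin, chr10:133000001-133500000, held 92 members among 111 ARID1A T3 regions and 21 BRG1 T3 regions. It carries ADAM8, a metalloprotease gene, ECHS1, a mitochondrial fatty acid oxidation gene, and UTF1, a gene of undifferentiated cells. The bin beside it, with INPP5A and CFAP46, held 81 of 102. On chromosome 5, the bin with the telomerase gene TERT and the dopamine transporter gene SLC6A3 held 66 of 79, and on chromosome 11 the bin with the mucin genes MUC6, MUC2, MUC5AC and MUC5B held 58 of 70.

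Long genes in such stretches held many members each. CDH4, the R-cadherin gene on chromosome 20, had 51 BRG1-free and 14 remaining regions in its span, and PTPRN2, a phosphatase-like gene of secretory vesicles on chromosome 7, had 49 and 7. INPP5A, an inositol phosphate phosphatase gene, had 41 and 9, and MAD1L1, a spindle checkpoint gene, 37 and 13. These genes are long, and the count per 100 kb was 7.41 in CDH4, 4.67 in PTPRN2, 16.7 in INPP5A and 8.87 in MAD1L1. TTC34 had 35 BRG1-free and 3 remaining regions (21.2 members per 100 kb), and RBFOX3, the gene of the neuronal splicing factor NeuN, 32 and 6. ADAMTS2, the procollagen N-proteinase gene, had 28 and 11, SLC12A7, a potassium-chloride cotransporter gene, 24 and 4, CFAP46 23 and 1, and KNDC1 21 and 2. KNDC1, a gene of neurite growth, was the densest of these named genes, with 31.7 members per 100 kb. In all, 3893 protein-coding genes had at least 1 member in their span, 779 had 3 or more and 71 had 10 or more.

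BRG1-free regions were looked up around genes of thyroid lineage and hormone production. Over all 19970 protein-coding genes, 7095 (35.5%) had a BRG1-free region and 13984 (70.0%) a remaining region within 25 kb of an end. Of 16 genes of thyroid lineage and hormone synthesis, 10 had a BRG1-free and 7 a remaining region. This count was not tested against these backgrounds, and DUOX1 with DUOXA1, and DUOX2 with DUOXA2, share their regions. The DUOX1 and DUOXA1 genes, of the hydrogen peroxide source of hormone synthesis and its maturation factor, shared a region of signal value 15.5 (library values 5.58 and 9.97), and DUOX2 with DUOXA2 one of 9.40 (5.06 and 4.35). The region near PAX8, the thyroid lineage factor, had 12.4 (5.58 and 6.79), and that over the start of SLC5A5 had 11.4 (5.42 and 5.97). The upper quartile of the signal value in the class was 11.5 and its 95th percentile 15.2, so the DUOX1 region lay above that percentile and the PAX8 region above the quartile. FOXE1, a thyroid transcription factor gene, had 9.05 (5.76 and 3.28), TG, the thyroglobulin gene, 8.95 (3.97 and 4.98), and TSHR, the thyrotropin receptor gene, 8.68 (4.33 and 4.35). The FOXE1 region was also in ARID1A vehicle and the SLC5A5 region in PBRM1 T3. The DUOX2, DUOXA1, DUOXA2 and TG genes had a BRG1-free and no remaining region in the window around their ends, although TG had 3 BRG1-free and 4 remaining regions in its whole span. NKX2-1, another thyroid lineage factor, had no ARID1A T3 region of either class within 25 kb.

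The AP-1 and related bZIP genes, which encode transcription factors of growth signals, stood at 13 of 20 with a BRG1-free region and 19 of 20 with a remaining one. They included regions at MAFK (signal value 14.9), BATF2 (13.6), FOSB (12.2), ATF7 (12.01) and MAFG (11.5). In all 13 a remaining ARID1A region lay in the same window, and at FOSL1 the BRG1-free region had 10.7 against 41.3 for the remaining one. Epithelial junction and keratin genes had 14 of 25 with a BRG1-free and 21 of 25 with a remaining region. Desmosomal PKP3 led with 21.4 (library values 7.51 and 13.9), then GRHL1, an epithelial transcription factor gene (18.9), TJP1, the tight junction ZO-1 gene (18.9), and KRT17 (15.4), KRT19 (15.3) and JUP (13.6). KRT14, a basal keratin gene, was the one with a BRG1-free and no remaining region, at 12.7. These counts describe where the regions lie and were not tested.

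Of 31 genes of SWI/SNF subunits, the remodeller itself, 12 (38.7%) had a BRG1-free and 30 (96.8%) a remaining region within 25 kb, beside 35.5% and 70.0% of all protein-coding genes. The BRG1-free share was near that background. The highest were at BRD9, a subunit gene of the non-canonical form (17.04), SMARCB1, a core subunit gene (15.6), SS18L1 (15.04) and SMARCD1 (14.9), each with a remaining region of higher value in the window, such as 31.3 at BRD9 and 34.4 at SMARCD1. The gap to BRG1 was 34.7 kb at BRD9, 2.009 kb at SMARCB1, 0.473 kb at SS18L1 and 2.885 kb at SMARCD1. ARID1A, SMARCA4, SMARCA2 and PBRM1 had no BRG1-free region in the window, and neither had THRB. The nearest member was 76.6 kb from ARID1A, 46.5 kb from SMARCA4, 98.3 kb from PBRM1 and 844.5 kb from THRB, measured to the nearest end of each gene. All 5 had at least 1 remaining region there.

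Hormone-related genes were near the background share. Of 22 genes of thyroid hormone receptors, deiodinases, transporters and cofactors, 6 had a BRG1-free and 15 a remaining region. Among them were RXRA, the heterodimer partner of TRβ (13.4), NCOA3, a coactivator gene (12.1), THRA, the other receptor gene (10.97), RXRB (9.05) and MED1, a Mediator subunit gene (8.45). Of 19 T3-responsive targets, 6 had a BRG1-free and 14 a remaining region, led by CPT1A, of fatty acid import into mitochondria (11.1), HR, a corepressor gene known as a T3 target in rodents (10.6), and CCND1, the cyclin D1 gene (9.98). None of the 12 regions, the strongest member at each of these genes, was in the TRβ T3 list, which held 1.93% of all members, so a count of 0 is near that share. Some of the named regions lay close to BRG1. The gap was 0.018 kb at HR, 0.287 kb at THRA, 0.85 kb at RXRA and 0.986 kb at MED1. It was 4.9 kb at RXRB, 8.53 kb at NCOA3, 15.9 kb at CPT1A and 19.04 kb at CCND1.

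The other lists lay on both sides of the 35.5% background. Cytosolic ribosomal protein genes had 36 of 84 with a BRG1-free and 72 with a remaining region, led by RPL10A (18.8) and RPS21 (17.5). The RPL10A region was also that of TEAD3, a DNA-binding partner of YAP. Genes of YAP, TEAD and their targets had 5 of 20 with a BRG1-free and 17 with a remaining region. TGF-beta, mesenchymal and matrix genes had 7 of 28 and 25, led by the integrin gene ITGA5 (16.5) and the ligand genes TGFB2 (14.3) and TGFB1 (11.9). Cyclins, CDKs, their inhibitors and E2F genes had 7 of 22 and 22, led by the inhibitor CDKN1C (14.5) and by RB1, the retinoblastoma gene (11.5). The CDKN1C region lay only 0.058 kb from a BRG1 region, and the RB1 region 11.451 kb. HOX genes had 14 of 39 with a BRG1-free and 17 with a remaining region, yet 4 stretches accounted for the 14. The region at chr7:27173583-27174088 (signal value 9.66) served 6 HOXA genes, and one of 13.95 served HOXB1, HOXB2 and HOXB3. Of the 14 HOX genes, 11 had no remaining region in the window, beside 991 of 7095 over all protein-coding genes. So had 18 of 45 zinc finger genes of chromosome 19 and 10 of 23 olfactory receptor genes. These counts were not tested. Neuronal adhesion and synaptic genes had 9 of 41 and 12, led by NRXN2 (24.2), which shares the SLC22A12 region above, and GRM8, a glutamate receptor gene (13.5). C2H2 zinc finger genes of chromosome 19 had 45 of 246 and 72, led by ZNF565 (17.5), and olfactory receptor genes 23 of 390 and 42.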

How the data were processed

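CUT&RUN maps a chromatin protein by antibody-guided release of the DNA around it. Per the submitters' processing notes, CASAVA 1.7, Trim Galore, Bowtie2 and MACS2 were used on hg38, with no parameters; read depth, and whether IgG served as a control, are not given here by any source. The authors deposited 1 list per antibody and treatment, in the layout of the IDR method, which keeps peaks ranked alike in both libraries. Its deposited signal value is the sum of 2 library values of unstated scale, and its deposited −log10 of the IDR starts at a rate of 0.05. Which numbered replicate each library column holds is not stated, and no label states whether the replicates are separate cultures. Only joint lists were used here, so each test compares shares of regions, and p-values and intervals cover counting error within these lists, not the spread between replicates. The 24 columns of summit positions and the IgG library were not used.

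An ARID1A T3 region counted as free of BRG1 when it shared no base with either BRG1 list, on chromosomes 1 to 22 and X. The members and gene lists were chosen with earlier results of these data known. Overlap meant 1 shared bp. Pairs of shares were tested with Fisher's exact test (two-sided), with log2 odds ratios (0.5 added to each cell) and Benjamini-Hochberg adjustment over 6 shares; p-values were written no smaller than 1e-300. Mantel-Haenszel odds ratios used 25 strata of width and signal quintiles. Intervals are exact Clopper-Pearson at 95%. Gene ends are both ends of RefSeq protein-coding and lncRNA genes (GRCh38.p14). Positions were used by chromosome name as annotated, and genes placed on alternate scaffolds of the assembly were not looked for. Gene-end distances, gene counts and the outermost annotated genes rest on these positions. Distances to an end or a start site were measured from the middle of a region, and the 25 kb windows of the gene lists from its nearest base. Named regions follow a rule: the highest signal values overall and in 5 classes, the widest, those at the membership threshold, the genes with most regions, and list genes by signal value; some genes that the rule names are not reported here. Python 3.11.15, pandas 2.3.3 and scipy 1.17.1 were used, and the code was tested on simulated lists.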

Additional observations from a re-analysis of the deposited data

How the results depend on the processing

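No paired analysis was possible because the authors joined each pair of libraries into 1 list and the columns carry no replicate number. The 12124 BRG1-free regions became 6897 when no BRG1 region was allowed within 5 kb, 4481 when ARID1A T3 regions had to reach an IDR of 0.01, and 7717 without regions within 5 Mb of the outermost genes, an alternative chosen after seeing the data; each of these rules admits fewer regions by construction. The 7095 genes with a BRG1-free region within 25 kb became 3585 at 5 kb and 10910 at 100 kb. The lower share in TRβ vehicle lost its call when regions were compared within width and signal strata (log2 odds ratio -0.15, Cochran-Mantel-Haenszel chi-square test, adjusted p = 0.281) and within gene end and width strata (log2 odds ratio -0.14, adjusted p = 0.341); the cause was not tested. All other values kept direction and call, among them the log2 odds ratios for ARID1A vehicle (-3.41 to -2.51), PBRM1 T3 (-2.99 to -1.96), PBRM1 vehicle (-4.31 to -2.81), TRβ T3 (-3.86 to -2.22) and gene ends (-2.71 to -1.12), the last from start sites to a 3 kb window. Of 88 comparisons with an alternative, 81 kept their call or size. With read depth unknown and 1 list per group, a region missing from a list may lie just under its threshold.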
